A study of Homo sapiens with 6 samples.

Results

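The VEGF ligands and receptors were followed as 9 genes, the ligand genes VEGFA, VEGFB, VEGFC and PGF, the receptor tyrosine kinase genes FLT1, KDR and FLT4, and the co-receptor genes NRP1 and NRP2. They were chosen by name, and every probe set whose platform annotation gives 1 gene symbol, that of a member, was taken. This gave 41 probe sets out of 49395 on the array, for 9 of 18132 named genes. RNA came from HMEC-1, an established endothelial line of human skin microvessels that carries a viral oncogene, grown without serum. EPC-Exos were given to 3 samples, at 1e+11 particles per mL over 24 hours, and 3 others got as much PBS instead. EPC-Exos is read here as exosomes, the small vesicles cells shed, of endothelial progenitor cells; the labels do not spell it out. All samples come from 1 cell line, and nothing in the labels tells whether replicates came from separate cultures, so p-values measure the spread between these samples, which may be technical.

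VEGF ligands are secreted dimers that drive the growth, survival and permeability of blood and lymphatic vessels. VEGFA binds the receptors FLT1 and KDR, of which KDR carries most of the growth signal in endothelium while FLT1 binds ligand tightly and can act as a trap. PGF and VEGFB bind FLT1, VEGFC binds FLT4 and, once cleaved, KDR, and the neuropilins hold ligand beside the kinase receptors and also bind class 3 semaphorins. Endothelial cells are known mainly as the receivers of VEGF, though they can also make ligands of the family.

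After EPC-Exos the RNA of 3 ligand genes was higher, VEGFC by 2.32-fold, VEGFA by 1.76-fold and PGF by 1.66-fold, and VEGFB did not pass the test. None of the 3 kinase receptor genes passed. The co-receptor gene NRP1 was 1.28-fold lower on the probe set with the highest signal, and NRP2 had 2 probe sets that rose, although the one that stands for the gene did not pass. Values are deposited log2 signals, n is 3 arrays per group, and a gene passed at an adjusted p under 0.05 in limma, a linear model fitted over all 11715 genes with enough signal and adjusted by Benjamini-Hochberg. Where a gene has several probe sets, the one with the brightest mean over the arrays stands for it. Of the 9 members, 7 were tested this way, and FLT1 and NRP2 lay below the signal filter.

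Much of the transcriptome differed between the groups, which sets the scale for these counts. Of the genes tested, 21.7% were called higher and 27.3% lower, 49.1% in all. Of the 7 members tested, 3 were called higher, 1 was called lower and 3 did not pass. The same 4 had groups that did not overlap, as did 55.7% of all genes tested, 25.5% higher and 30.2% lower. A change at least as large as that of VEGFC, in either direction, was seen in 1.66% of genes tested, and one at least as large as that of VEGFA in 4.75%. The median change was 0.23 over the 7 members and -0.011 over all genes tested, in log2 signal. With the design text's threshold, a fold of at least 1.5 and an unadjusted p under 0.05, VEGFA, VEGFC and PGF passed, beside 3.94% of all genes higher and 5.96% lower.

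The background level was read from 17 Tag control probe sets, which target no human RNA and whose mean log2 signals reached at most 4.97. Of the 41 member probe sets, 23 lay above that level in both groups and 18 at or below it in both groups, among them all 5 of FLT1. Array medians lay between 6.24 and 6.34, and over all non-control probe sets the arrays correlated at 0.997 within a group and at 0.988 to 0.989 between groups. Of 13 endothelial markers, 9 lay above the Tag level in at least 1 group (PECAM1, VWF, TIE1, ENG, ESAM, ERG, ROBO4, MCAM and CLEC14A), and CDH5, TEK, EMCN and CLDN5 did not. CDH5 encodes VE-cadherin, a defining junction protein of endothelium, so a part of the defining markers was at background. Of 5 lymphatic endothelial markers on the array, PDPN lay just above the Tag level after EPC-Exos, and PROX1, LYVE1, CCL21 and RELN did not reach it.

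**Figure D1:**
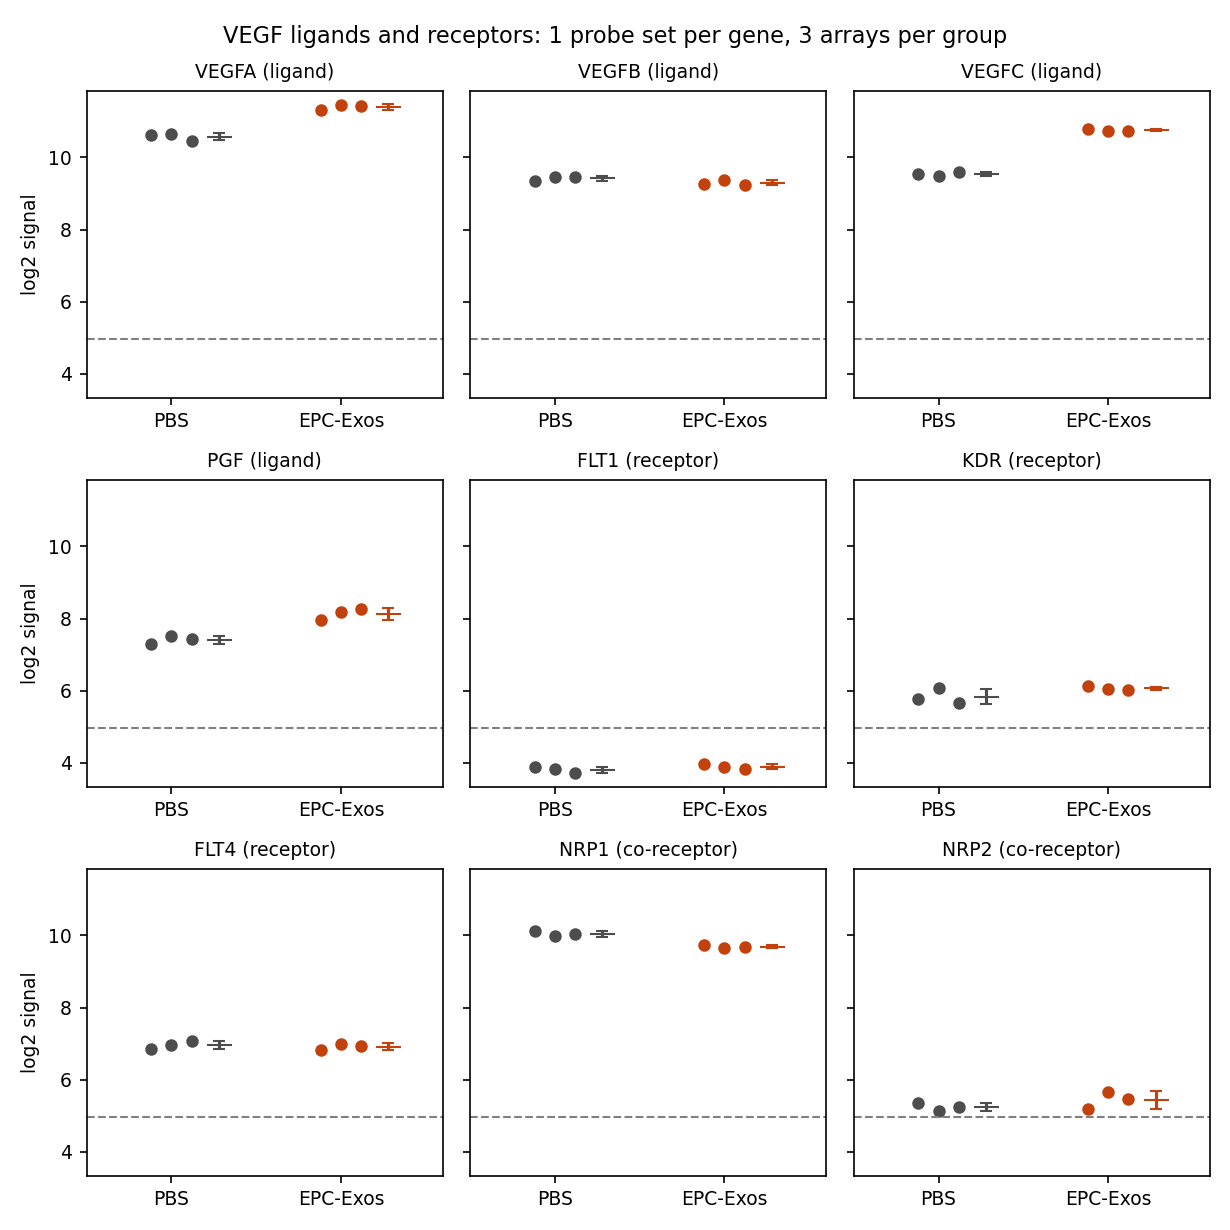
Log2 signal (vertical axis) of the probe set that stands for each of the 9 genes, in 3 PBS and 3 EPC-Exos arrays (points); the bar beside them is the mean and SD, and the dashed line is the highest mean Tag control signal, 4.97. VEGFA, VEGFC and PGF are higher in all 3 EPC-Exos arrays than in any PBS array, NRP1 is lower, the groups overlap in VEGFB, KDR, FLT4, FLT1 and NRP2, and FLT1 lies below the dashed line.

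VEGFC, the main growth factor of lymphatic vessels, changed most among the members. Its log2 signals were 9.55, 9.49 and 9.59 with PBS and 10.78, 10.74 and 10.74 with EPC-Exos. The groups were well apart, and the spread within each was small. The mean went from 9.54 ± 0.050 to 10.75 ± 0.027 (SD, n = 3), a change of 1.21 ± 0.052 (SE; limma, adjusted p = 1.37e-11). The array has 1 probe set for VEGFC, so the value has no second measurement within the array.

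VEGFA, the main growth factor of blood vessels, gave PBS signals of 10.63, 10.65 and 10.46 and EPC-Exos signals of 11.31, 11.45 and 11.43. Every EPC-Exos array was above every PBS array. The change was 0.82 ± 0.057 (SE), from a mean of 10.58 ± 0.11 to 11.40 ± 0.074 (SD, n = 3; limma, adjusted p = 4.92e-09). VEGFA has 10 probe sets, all above the Tag level. In a limma fit over all 49293 non-control probe sets, in which 28.4% were called, 13.6% higher and 14.8% lower, 9 of the 10 were called higher, and the groups did not overlap in any of the 10. Without overlap, 20.0% of all probe sets were higher and 19.1% lower.

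The size of the VEGFA change differed between its probe sets, from 0.32 to 1.09 with a median of 0.78 in log2 signal. The change was 1.09 ± 0.095 (SE) on 11738414_a_at, with signals of 6.46, 6.54 and 6.60 with PBS and 7.58, 7.52 and 7.77 with EPC-Exos. It was 0.32 ± 0.13 (SE) on 11742212_a_at, with 5.63, 5.75 and 5.73 against 6.30, 5.79 and 5.99, and this was the VEGFA probe set that did not pass (adjusted p = 0.0639). Its PBS mean of 5.70 was the lowest of the 10 and near the Tag level, where folds can be compressed, which was not tested. Its change is thus not directly comparable with those of the brighter probe sets. These are the VEGFA probe sets that are not of the _s_at or _x_at kind, which can bind transcripts of related genes; the other 8 are of that kind and changed by 0.41 to 0.99. The annotation lists 9 different target transcripts for the 10 probe sets. VEGFA is known to be spliced into forms that differ in how they bind matrix; the probe sequences were not used here, so which forms each probe set reports was not tested.

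PGF, the placental growth factor, which binds FLT1 and not KDR, gave 7.28, 7.51 and 7.42 with PBS and 7.95, 8.18 and 8.27 with EPC-Exos. Again no EPC-Exos array was as low as a PBS array, though the spread was wider than for VEGFC. Its change was 0.73 ± 0.091 (SE), from a mean of 7.40 ± 0.11 to 8.13 ± 0.16 (SD, n = 3; limma, adjusted p = 5.03e-06). PGF has 1 probe set.

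VEGFB, a ligand of FLT1 known mainly from heart and muscle, gave 9.34, 9.47 and 9.46 with PBS and 9.27, 9.37 and 9.24 with EPC-Exos. The groups overlapped by 1 array on each side. The change of -0.13 ± 0.063 (SE) did not pass (limma, adjusted p = 0.110; 95% confidence interval -0.26 to 0.0068), so a small fall is within the interval and a rise of the size seen in the other ligands is not. Without PBS replicate 1 it passed as lower (-0.17, adjusted p = 0.0354), as it did with array weights (adjusted p = 0.0442) and when arrays were centred on GAPDH and ACTB (-0.21, adjusted p = 0.00892). Over all alternatives its adjusted p ran from 0.00892 to 1. The remaining gene of the family, VEGFD, shares its probe set with a second gene symbol and was not analysed here.

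Upstream sequences were matched by symbol in a RefSeq promoter table of GRCh38.p14, and 6 of the 9 members had an entry, with 7 windows in all because PGF has a pair of start sites listed. VEGFA, FLT4 and NRP1 had none. Shown are the 250 bases upstream of the start of VEGFC and of PGF, which rose together, and of VEGFB, which did not pass, 5′ to 3′ on the gene's strand. Capitals mark the hypoxia core, ACGTG or GCGTG on either strand, the letters bound by hypoxia-inducible factors.
VEGFC, chr4:176792923-176793172, minus strand: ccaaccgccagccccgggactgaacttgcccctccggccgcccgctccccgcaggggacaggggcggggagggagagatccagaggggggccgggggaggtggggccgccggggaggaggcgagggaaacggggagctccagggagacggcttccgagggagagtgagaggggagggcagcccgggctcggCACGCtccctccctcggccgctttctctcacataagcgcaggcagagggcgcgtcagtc
PGF, chr14:74955598-74955847, minus strand: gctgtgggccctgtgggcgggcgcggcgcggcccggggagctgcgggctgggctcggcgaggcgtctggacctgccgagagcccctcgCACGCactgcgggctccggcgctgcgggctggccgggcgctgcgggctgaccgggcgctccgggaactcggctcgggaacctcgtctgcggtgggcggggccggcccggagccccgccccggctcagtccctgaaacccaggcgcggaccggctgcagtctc
VEGFB, chr11:64234334-64234583, plus strand: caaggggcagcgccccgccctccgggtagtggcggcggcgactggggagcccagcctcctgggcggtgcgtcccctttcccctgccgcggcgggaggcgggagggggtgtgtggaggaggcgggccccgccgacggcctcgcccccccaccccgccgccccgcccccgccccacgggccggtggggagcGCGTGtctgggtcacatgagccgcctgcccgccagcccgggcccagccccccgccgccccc
Each of these 3 windows held 1 match, starting 59 bases upstream of the window's end in VEGFC, 162 in PGF and 61 in VEGFB, and the second PGF window held none. Over the members, 4 of 7 windows held the core, against 43.2% of all 35116 promoter windows of that length. GGGCGG, the SP1 box, was in 7 of 7 member windows and in 42.6% of all windows. These are windows of 6 genes, and the PGF windows overlap and share 1 GGGCGG match. Member windows are rich in G and C, from 65.2% in KDR to 82.8% in VEGFB. The other searched letters had no match in the member windows: TGANTCA for AP-1 (6.57% of all windows), GGGNNTTCC, also with 1 more N, for NF-kB (9.61%), a pair of GAAA parted by NN for interferon response (3.02%) and TCACNCCAC for sterol response (0.883%). Both strands were read, and a match is a string of letters, not a bound site.

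KDR, the receptor that carries most VEGFA signalling in endothelium, gave 5.78, 6.08 and 5.65 with PBS and 6.12, 6.04 and 6.03 with EPC-Exos on its higher probe set. The EPC-Exos arrays lay close together, and PBS replicate 2 lay among them. The change of 0.23 ± 0.12 (SE) did not pass (limma, adjusted p = 0.115; 95% confidence interval -0.016 to 0.47). Without PBS replicate 2 it passed as higher (0.35, adjusted p = 0.0198), and over all alternatives its adjusted p ran from 0.0198 to 1. The mean signals of 5.84 ± 0.22 and 6.06 ± 0.051 (SD, n = 3) were near the Tag level, where folds can be compressed. The second KDR probe set was below that level (4.01 and 4.06).

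FLT4, the VEGFC receptor of lymphatic endothelium, gave 6.85, 6.95 and 7.07 with PBS and 6.81, 7.0 and 6.93 with EPC-Exos. The ranges of the groups lay over each other. Its change was -0.041 ± 0.092 (SE; limma, adjusted p = 0.742; 95% confidence interval -0.24 to 0.15), an interval that holds no change of the size VEGFC showed. Of its 6 probe sets, 2 lay above the Tag level and 4 below it, and their changes ran from -0.094 to 0.19.

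FLT1, which binds VEGFA, VEGFB and PGF, had 5 probe sets, all at or below the Tag level in both groups, with signals between 3.14 and 4.13. Its RNA could not be told from background on these arrays, so a change in it was not detectable. On the probe set with the highest mean, the values were 3.81 ± 0.082 with PBS and 3.89 ± 0.068 with EPC-Exos (SD, n = 3; in the limma fit without the filter, in which 32.3% of genes were called, adjusted p = 0.626). In the limma fit over probe sets, 0 of the 5 of FLT1, 0 of the 2 of KDR and 0 of the 6 of FLT4 passed, and 0 had an unadjusted p under 0.05.

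**Figure D2:**
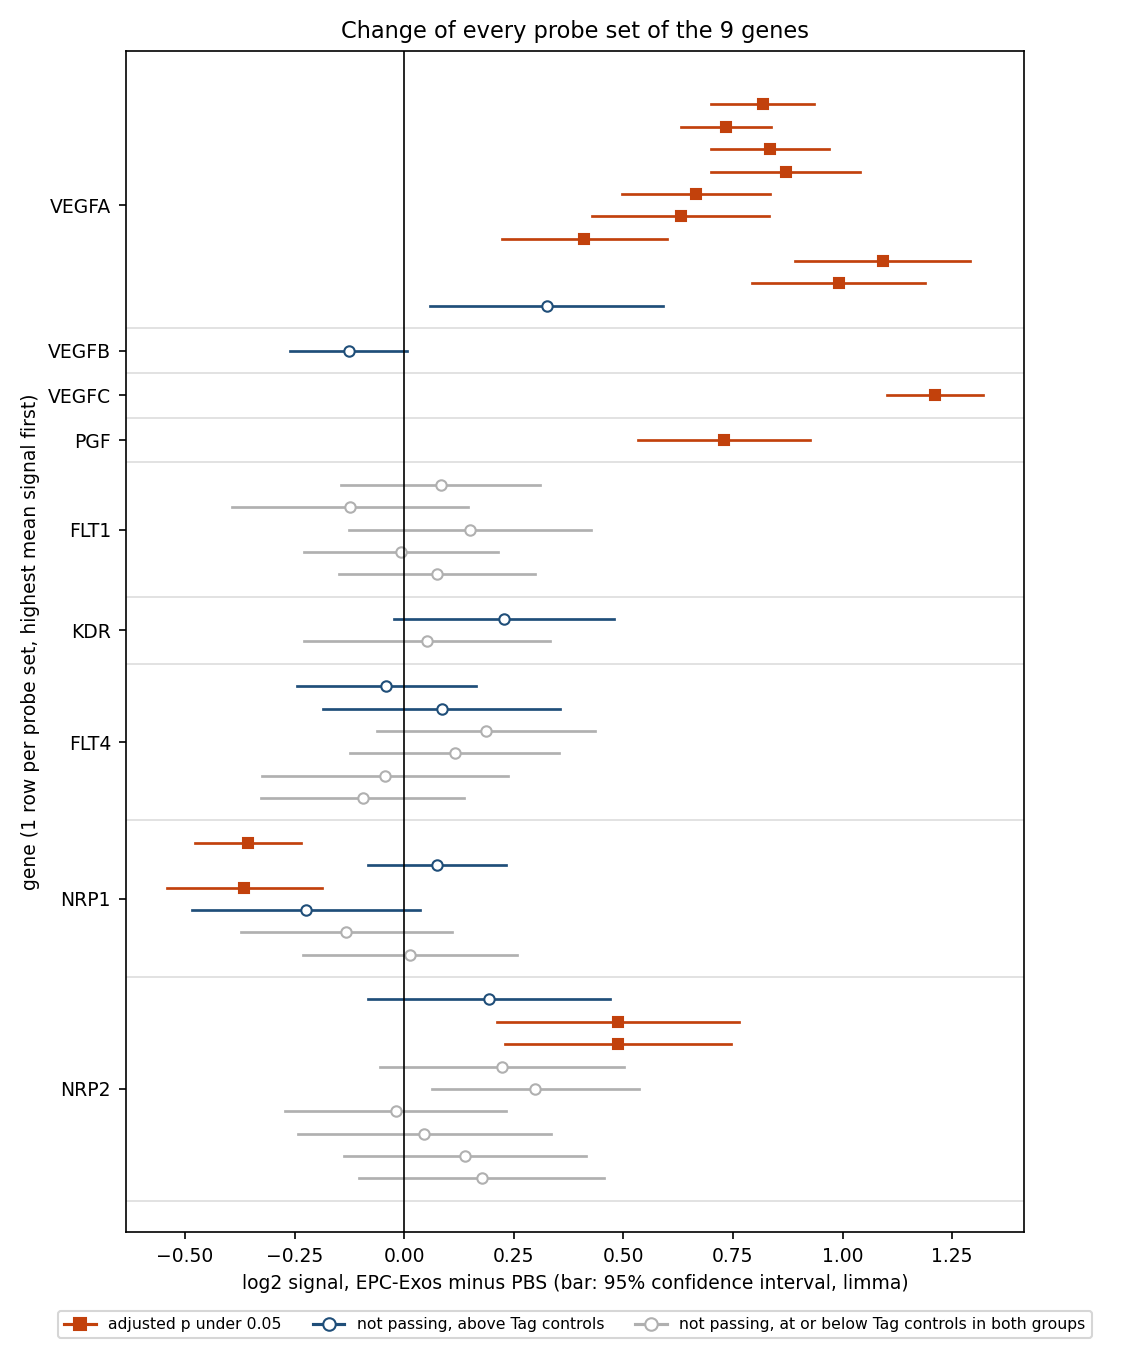
Change in log2 signal, EPC-Exos minus PBS (horizontal axis), of all 41 probe sets of the 9 genes, grouped by gene, with 95% confidence intervals from limma over all probe sets; filled squares passed at an adjusted p under 0.05 and grey marks lie at or below the Tag level in both groups. In all, 13 probe sets were called higher, 9 of them of VEGFA, 2 were called lower, both of NRP1, and 0 passed among those of FLT1, KDR and FLT4. Over all probe sets on the array 13.6% were called higher and 14.8% lower.

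NRP1, a co-receptor that binds VEGFA and semaphorins, gave 10.12, 9.97 and 10.04 with PBS and 9.74, 9.66 and 9.67 with EPC-Exos. Each EPC-Exos array was below each PBS array. The change was -0.36 ± 0.058 (SE), from a mean of 10.05 ± 0.076 to 9.69 ± 0.041 (SD, n = 3; limma, adjusted p = 7.10e-05). This probe set, 11757751_s_at, is of the kind that can bind related transcripts.

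The other NRP1 probe sets did not all move with it. Of its 6, 4 lay above the Tag level, and 2 of these were called lower in the fit over probe sets. In that fit 14.8% of all probe sets were called lower. On 11728214_a_at the signals were 8.13, 8.17 and 8.33 with PBS and 7.95, 7.71 and 7.86 with EPC-Exos, a change of -0.36 ± 0.084 (SE; limma, adjusted p = 0.00264). On 11728215_a_at, at a similar signal, they were 7.94, 8.0 and 8.05 with PBS and 8.12, 8.01 and 8.09 with EPC-Exos, a change of 0.075 ± 0.075 (SE; limma, adjusted p = 0.536). So the first was lower in all EPC-Exos arrays, and in the second the groups overlapped. The changes of these 2 probe sets differed by -0.44, with an exact permutation p of 0.1 (two-sided, n = 3 per group), the smallest that 3 against 3 arrays allows; this pair was picked after its values were seen. The remaining probe set above the Tag level, 11750657_a_at, changed by -0.22 ± 0.12 (SE) with overlapping groups and did not pass (limma, adjusted p = 0.207). NRP1 is known to be spliced into membrane-bound and shorter secreted forms. The annotation lists a different target transcript for each of the 6 probe sets, but which form each binds was not tested. The fall of NRP1 as a gene depends on this choice: when _s_at and _x_at probe sets were left out, the gene was read from 11728215_a_at, its change was 0.075 and it did not pass, and with the mean of its probe sets the change was -0.17 (adjusted p = 0.0663; over all alternatives 1.29e-06 to 0.437).

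NRP2, the co-receptor known for VEGFC and lymphatic vessels, had low signals. On the probe set that stands for the gene they were 5.35, 5.13 and 5.25 with PBS and 5.18, 5.67 and 5.45 with EPC-Exos, with overlapping groups (0.19 ± 0.13, SE; in the limma fit without the filter, adjusted p = 0.288). Of its 9 probe sets, 2 were called higher in the fit over probe sets, in which 13.6% of all were called higher. On 11733665_a_at the signals were 4.99, 5.17 and 4.96 against 5.41, 5.81 and 5.35, a change of 0.49 ± 0.13 (SE; limma, adjusted p = 0.00836). On 11716967_a_at they were 4.97, 4.81 and 5.13 against 5.32, 5.49 and 5.56, a change of 0.49 ± 0.12 (SE; limma, adjusted p = 0.00504). In both, every EPC-Exos array was above every PBS array, as in 20% of all probe sets. The PBS means of 5.04 and 4.97 were, however, at the edge of the Tag level, where folds can be compressed. The other 7 probe sets changed by -0.020 to 0.30 and did not pass, and 6 of the 9 lay at or below the Tag level in both groups.

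**Figure D3:**
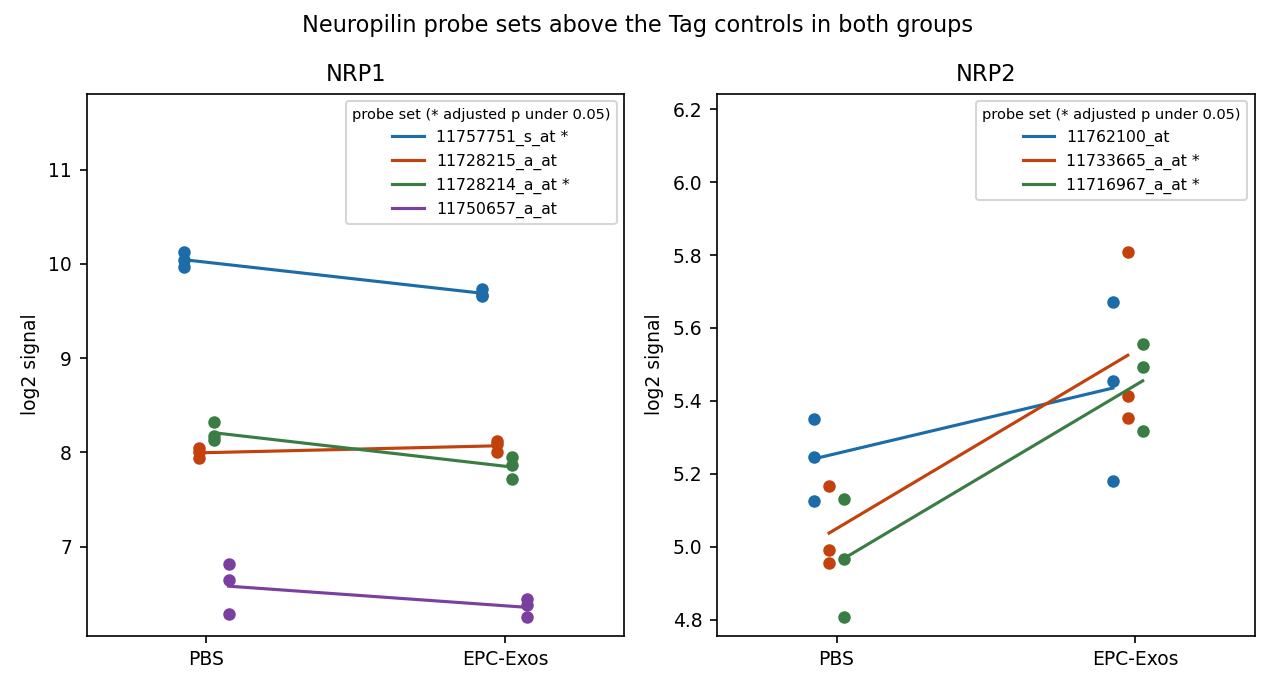
Log2 signal (vertical axis) in 3 PBS and 3 EPC-Exos arrays (points) of the probe sets above the Tag level in both groups, 4 for NRP1 (left) and 3 for NRP2 (right); lines join the group means and a star marks an adjusted p under 0.05. For NRP1 11757751_s_at and 11728214_a_at go down, by 0.36 each in log2 signal, and 11750657_a_at changes by -0.22 with overlapping groups. The probe set 11728215_a_at stays within the PBS range or just above it. For NRP2 2 of 3 probe sets go up without overlap.

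The rest of the pathway was read from 5 lists written from textbook knowledge, with earlier results of these data known. Neuropilins also serve class 3 semaphorins through plexins. Of 10 tested semaphorin and plexin genes 1 was called higher and 4 lower, while 5 did not pass. Over all genes tested 21.7% were called higher and 27.3% lower, 49.1% in all, so the share called was near that of all genes. The median change in log2 signal was -0.090. SEMA3B, a semaphorin that competes with VEGF for neuropilins, fell from 8.91 ± 0.039 to 7.21 ± 0.13 (SD, n = 3), a change of -1.70 ± 0.078 (SE). PLXND1, an endothelial plexin, fell by 0.76 in log2 signal, and PLXNA2 rose by 0.38. With the mean of its probe sets PLXNA2 changed by 0.15 and did not pass (limma, adjusted p = 0.0547). SEMA3A, named after its values were seen, did not pass (-0.093 ± 0.079, SE).

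Among signal transducers below the receptors, 12 of 38 tested were called higher, 9 lower and 17 did not pass, shares not far from those of all genes, with a median of 0.039. SPHK1, sphingosine kinase, rose most, by 1.31 ± 0.064 (SE). PIK3R1, the regulatory subunit of phosphoinositide 3-kinase, changed by -0.71 ± 0.093, and PRKCA, a protein kinase C, by -0.62 ± 0.044; without _s_at and _x_at probe sets PRKCA read 0.24 and passed as higher, so its direction depends on the probe set.

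Of 17 tested genes known to be induced by VEGF in endothelium, 11 were called higher, 3 lower and 3 did not pass. Over all genes tested 21.7% were called higher and 27.3% lower. The median change was 0.38 beside -0.011 over all genes tested. ESM1, the secreted endothelial proteoglycan endocan, changed by 3.74 ± 0.063 (SE), TNFAIP3, an inhibitor of NF-kB, by 2.59 ± 0.081 and CXCL8, a chemokine, by 2.56 ± 0.057. Named after their values were seen, STC1, a secreted glycoprotein (1.55 ± 0.069), F3, tissue factor (1.32 ± 0.051), RCAN1, the calcineurin inhibitor (0.24 ± 0.057), and HLX, a homeobox factor (0.38 ± 0.091), were also higher. The members that fell, PLAU (-1.43 ± 0.062), EGR1 (-0.89 ± 0.056) and NR4A2 (-0.88 ± 0.15), encode a protease and early transcription factors. Another 10 members were below the filter, and of these PTGS2, the inducible cyclooxygenase, was called in the fit without it. The tip cell ligand gene DLL4 (4.34 and 4.22) and ANGPT2 (3.68 in both groups) were at background. Many of these genes also answer to inflammatory signals, and the list does not part the sources. It was written with earlier results of these data known, so its counts and median are not an independent test.

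Of 14 tested genes that control VEGFA RNA, 4 were higher, 3 lower and 7 did not pass, with a median of -0.046. Over all genes tested the shares were 21.7% higher and 27.3% lower, 49.1% in all. The largest change was in ZFP36L2, which promotes the decay of RNAs with AU-rich elements (-0.57 ± 0.060, SE), followed by VHL, which marks hypoxia-inducible factors for degradation (-0.33 ± 0.061), and the transcription factor SP1 (-0.24 ± 0.066). Without _s_at and _x_at probe sets VHL changed by -0.21 and passed, and SP1 by -0.12 and did not (limma, adjusted p = 0.181). Named after their values were seen, HIF1A changed by 0.21 ± 0.048, ZFP36L1 by 0.22 ± 0.043 and ELAVL1, which stabilises VEGFA RNA, by 0.17 ± 0.045, and EPAS1 did not pass (-0.0064 ± 0.048). Except for ZFP36L2 these are folds under 1.3, and the count of lower members ranged from 0 to 6 over the alternatives.

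Of 12 tested genes that process or bind VEGF outside the cell, 4 were higher, 4 lower and 4 did not pass, with a median of 0.081. Over all genes tested the shares were 21.7% higher and 27.3% lower. DCN, the proteoglycan decorin, which binds and restrains receptor kinases, fell from 7.61 ± 0.089 to 5.40 ± 0.088 (SD, n = 3) on an _s_at probe set; without that kind the gene read 0.25 and did not pass. TIMP3, which blocks VEGFA from KDR, changed by -1.07 ± 0.084 (SE), and ADAMTS1, a protease that binds VEGFA and stands in the VEGF-induced list too, by 1.06 ± 0.078. TIMP3 also passed with the mean of its probe sets (-0.68) and without _s_at and _x_at probe sets (-0.44), but with smaller changes. Named after their values were seen, HSPG2, the matrix proteoglycan perlecan (-0.94 ± 0.096), and VASH1, the angiogenesis inhibitor vasohibin (-0.62 ± 0.086), fell, THBS2, an inhibitor that binds matrix (0.73 ± 0.10), rose, and CCBE1, which VEGFC needs for its cleavage, did not pass (0.094 ± 0.060).

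**Figure D4:**
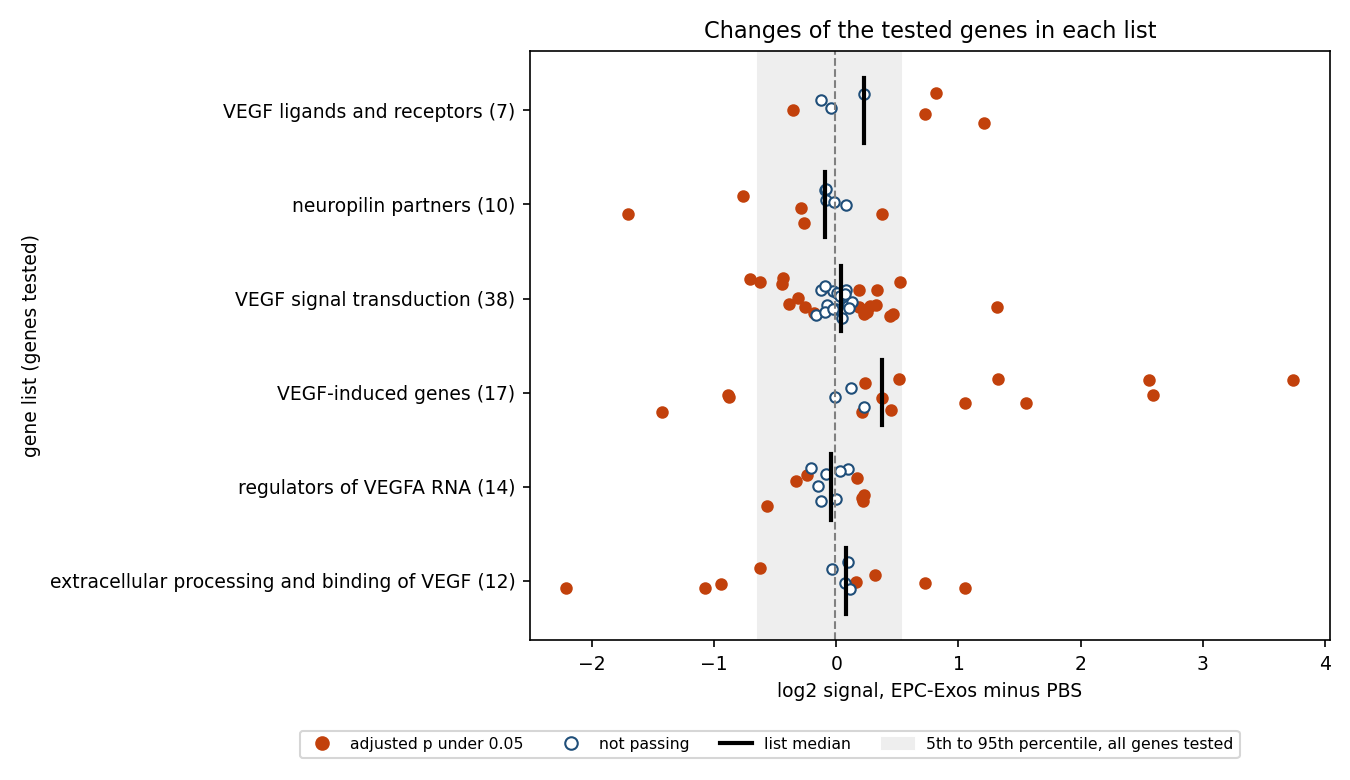
Change in log2 signal, EPC-Exos minus PBS (horizontal axis), of each tested gene in the VEGF ligands and receptors and in 5 pathway lists (rows, with the number of genes tested); filled points passed at an adjusted p under 0.05, black bars are list medians, and the grey band spans the 5th to 95th percentile of all genes tested, -0.64 to 0.53. VEGFC, VEGFA and PGF lie to the right of the band, and 6 of the 17 VEGF-induced genes lie at 1.06 or above.

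Marker lists of cell types were counted in the limma fit without the filter. In that fit 32.3% of 18132 genes were called, 2605 higher and 3260 lower. The summed linear signal of 6 fibroblast markers ranged from 2329 to 2619 over PBS arrays and from 1412 to 1558 over EPC-Exos arrays. Of these markers 3 were called lower and 1 higher, and COL1A2 and PDGFRA were at background. Most of this sum is COL1A1, with mean log2 signals of 11.07 with PBS and 10.40 with EPC-Exos. The sum of 6 smooth muscle and pericyte markers ranged from 628 to 706 and from 369 to 412. Of these, 2 were called lower, ACTA2 and PDGFRB, and MYH11, CNN1, DES and RGS5 did not pass. The sum of the 13 endothelial markers ranged from 2225 to 2592 and from 3132 to 3185. Called higher were 4 of them, TIE1, ENG, ESAM and CLEC14A, with the largest change in ENG (0.81 in log2 signal). Of 5 leukocyte markers, CD68 and CD3E lay above the Tag level and PTPRC, CD14 and ITGAM did not, and the sums ranged from 296 to 307 with PBS and from 433 to 474 with EPC-Exos. CD68, a lysosomal protein, was the 1 leukocyte marker called higher (0.74 ± 0.072, SE); CD3E did not pass (0.096 ± 0.13, SE). Of 5 epithelial markers 4 lay above the Tag level, and 1 was called lower, with sums of 320 to 353 and 297 to 323. DCN belongs to the fibroblast list. The sample titles name HMEC-1 and no other cell type. The part of these shifts in the changes of the VEGF genes was not tested. In RNA of a whole culture, fewer cells of a kind and less RNA per cell cannot be told apart.

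Genes with profiles over the 6 arrays nearest to those of VEGFC and VEGFA were found by Euclidean distance after centring each gene on its mean. Nearest to VEGFC were FRMD3 (distance 0.138), SPHK1 (0.141), PNPT1 (0.149), ADAMTS6 (0.154) and SLC8A1 (0.155), with changes of 1.17 to 1.31 in log2 signal. Nearest to VEGFA were PPIF (0.108), SLC25A32 (0.108), WWC1 (0.109), CD68 (0.132) and YRDC (0.141), with changes of 0.74 to 0.82. With the mean of probe sets the changes of SLC8A1 (0.59) and WWC1 (0.52) were smaller. With 2 groups, such likeness says little beyond an equal change.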

How the data were processed

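The values deposited are log2 signals of probe sets on 6 Affymetrix arrays, and the authors' table was used as it stands. MAS5 is named, without a role, in the submitters' processing notes; background correction and scaling are not given in the sources used here. The log2 scale was taken from the values, 2.47 to 14.52, and the deposited scaling was kept. The number of arrays limits the precision. The platform annotation names 44988 probe sets with 1 gene symbol and 1832 with several. A gene was read from its probe set with the highest mean and tested where that mean reached 5.45, the 40th percentile over non-control probe sets.

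Groups and replicate numbers came from the sample titles. The test was limma's (version 3.58.1, R 4.3.3), two-sided, with a variance trend in eBayes and group as the only term. The code was run on simulated data with independent noise in each array and few changed genes. That setting differs from these data, so the run does not give the error rate here. Members below the filter were read from the same fit without it, and probe sets from a fit over all 49293. The members and lists were chosen with earlier results of these data known. Named from each list were the 3 called genes with the largest change, and from the profiles the 5 nearest genes. No batch is recorded in the sources used here, and any batch that follows the groups cannot be told apart from EPC-Exos. The alternatives were 4 scalings, 2 offsets, 2 filters, 2 choices of probe set, other variance models, a replicate block, leaving out each array and 2 call rules.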

Additional observations from a re-analysis of the deposited data

How the results depend on the processing

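VEGFA, VEGFC and PGF were called higher under all 21 alternatives, with changes of 0.73 to 1.09, 1.13 to 1.24 and 0.56 to 0.82 in log2 signal. Without PBS replicate 2 KDR was called higher too. The count of members called lower, 1, was 2 with centring on GAPDH and ACTB and with array weights, where VEGFB joined NRP1. It was 0 with the mean of probe sets, without _x_at and _s_at probe sets, with the design text's threshold and in a test against a fold of 1.2; at an unadjusted p under 0.05 in limma it was then 2, 0, 1 and 0. Leaving out 1 array gave 1 to 2. Without _x_at and _s_at probe sets the changes of NRP1 (0.075), PRKCA (0.24) and DCN (0.25) turned upward, as did that of PRKCA with the mean of probe sets (0.017), and 6 member probe sets were called in place of 15. PLXNA2, VHL and SP1 also lost their calls at the design text's threshold and against a fold of 1.2, and ZFP36L2 at the former. With an offset of 64 the changes of DCN (-1.29) and SLC8A1 (0.77) were smaller and still called. The genes called numbered 1159 at the design text's threshold and 1841 against a fold of 1.2, and 4959 to 5671 without 1 array. Centring on GAPDH and ACTB gave 1762 genes higher and 4349 lower, beside 2545 and 3203 as deposited. Same-numbered arrays correlated at 0.20, 0.18 and 0.077 in their deviations from the group means. These values are all positive and do not settle whether the arrays are pairs. The main fit did not take the numbers as pairs. With the replicate block 6118 genes, 3 members higher and 1 lower were called, beside 5748 genes in the main fit.

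Signal over background limits FLT1, NRP2 and the lower KDR and FLT4 probe sets. With the mean of probe sets 5 members passed the filter, and so did 5 at the 60th percentile.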
